A study of Rattus norvegicus with 6 samples.

Results

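The genes examined are 6 markers of proliferation, Cdk1, Ccnb1, Top2a, Mki67, Pcna and Ccnd1, chosen by Ensembl identifier among the 32883 rat gene identifiers of the deposited count table. All 6 were present and all 6 passed the filter on low counts. They were measured by RNA sequencing in smooth muscle cells from rat vessels, which give the vessel wall its tone, and which carried a CRISPR-dCas9 system, a nuclease-dead Cas9 that binds DNA without cutting it. In 3 samples (sg-MIAT) the system was directed to overexpress the long non-coding RNA MIAT. In the other 3 samples (sg-U6), labelled WT for genotype, it carried a negative control guide. The labels give vessel as the tissue and do not give the animal, strain, age, passage, time after treatment or activator domain, nor whether the samples of a group came from separate cultures, so the p-values reflect only how these samples varied, possibly for technical reasons. No reference table used here pairs Ensembl identifiers with symbols, so Miat itself, smooth muscle markers, markers of other vessel cells and other cell cycle genes were not analysed here. The 6 genes are named from a list that pairs them with their identifiers.

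Smooth muscle cells of a healthy vessel rarely divide, and their return to the cell cycle is a recognised feature of neointimal thickening. Progress through the cycle is driven by cyclins bound to cyclin-dependent kinases. D-type cyclins act in G1 in response to growth signals, the replication machinery works in S phase, and cyclin B with Cdk1 brings the cell into mitosis. Many genes of late cycle phases are kept low in resting cells and are transcribed together in G2, in part through CCAAT boxes bound by NF-Y and through the cell cycle homology region, a short element bound by the DREAM and MuvB complexes, whereas E2F sites are typical of genes that peak at the start of S phase. In bulk RNA, fewer cycling cells and less of a transcript per cycling cell cannot be told apart.

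The promoters of the 4 genes of late cycle phases, Cdk1, Ccnb1, Top2a and Mki67 (called mitotic here), are shown with that of Pcna because these genes are read together in what follows. The RefSeq promoter table (build GRCr8, which is not the Rnor_6.0 build named in the submitters' processing notes) held 5 of the 6 genes, matched by symbol. Each sequence runs 5′ to 3′ on the strand of the gene, from 250 bases before to 50 bases after the start of the transcript. Capitals mark the CCAAT box, the cell cycle homology region and the E2F site, each searched on both strands. The cell cycle homology region was spelled TTTGAA with the variant TTCGAA. The E2F site was spelled TTTGGCG, the variant TTTCGCG, the variant TTTCCCG, or the variant TTTGCCG.
Cdk1 (chr20:19265043-19265342, plus strand): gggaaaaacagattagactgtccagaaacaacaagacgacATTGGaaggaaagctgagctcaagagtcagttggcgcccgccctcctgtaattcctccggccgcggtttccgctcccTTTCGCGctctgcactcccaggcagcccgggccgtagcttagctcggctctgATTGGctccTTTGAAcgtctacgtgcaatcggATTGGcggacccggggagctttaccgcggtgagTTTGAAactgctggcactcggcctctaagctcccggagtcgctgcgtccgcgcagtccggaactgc
Ccnb1 (chr2:33655176-33655475, minus strand): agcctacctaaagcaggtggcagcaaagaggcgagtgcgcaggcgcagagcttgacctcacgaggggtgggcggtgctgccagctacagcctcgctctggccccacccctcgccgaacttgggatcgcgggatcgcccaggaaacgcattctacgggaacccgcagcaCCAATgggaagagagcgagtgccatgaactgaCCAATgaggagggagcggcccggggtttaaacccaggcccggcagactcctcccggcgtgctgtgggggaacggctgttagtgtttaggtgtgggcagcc
Top2a (chr10:84473044-84473343, minus strand): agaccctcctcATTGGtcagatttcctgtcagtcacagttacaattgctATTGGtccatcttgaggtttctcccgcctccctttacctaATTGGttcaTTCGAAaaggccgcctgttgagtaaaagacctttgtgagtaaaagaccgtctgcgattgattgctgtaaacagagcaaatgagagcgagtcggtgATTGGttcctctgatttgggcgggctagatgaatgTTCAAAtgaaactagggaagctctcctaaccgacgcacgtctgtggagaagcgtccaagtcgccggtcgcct
Mki67 (chr1:199952544-199952843, minus strand): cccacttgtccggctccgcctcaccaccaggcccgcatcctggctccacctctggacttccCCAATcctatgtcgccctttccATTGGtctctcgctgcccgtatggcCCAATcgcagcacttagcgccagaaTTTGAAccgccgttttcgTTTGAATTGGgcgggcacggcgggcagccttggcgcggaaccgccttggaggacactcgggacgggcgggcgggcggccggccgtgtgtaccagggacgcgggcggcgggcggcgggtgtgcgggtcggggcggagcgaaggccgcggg
Pcna (chr3:139955771-139956070, minus strand): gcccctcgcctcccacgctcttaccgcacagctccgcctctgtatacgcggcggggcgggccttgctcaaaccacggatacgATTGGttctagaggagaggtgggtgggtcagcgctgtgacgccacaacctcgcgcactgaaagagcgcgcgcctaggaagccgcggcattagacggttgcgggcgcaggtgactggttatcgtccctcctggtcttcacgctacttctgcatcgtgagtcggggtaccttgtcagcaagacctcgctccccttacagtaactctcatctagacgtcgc

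CCAAT letters occurred 3 times in the Cdk1 promoter, 2 times in Ccnb1, 4 times in Top2a, 4 times in Mki67 and 1 time in Pcna. Of all 33469 promoters in the table, 37.5% held at least 1 such match, 11.2% at least 2 and 0.675% at least 4. Letters of the cell cycle homology region occurred 2 times each in Cdk1, Top2a and Mki67, where 19.7% of all promoters held at least 1 match and 2.76% at least 2. Only the spellings TTTGAA and TTCGAA were searched, so other spellings of this region, in Ccnb1 or elsewhere, would be missed. In Cdk1 the match nearest to the start began 16 bases before it, and in Top2a 22 bases before it. One of the Mki67 matches shares a base with a CCAAT match, so these letters overlap. Of the E2F letters, only TTTCGCG in Cdk1 was found, 133 bases before the start, and 6.8% of all promoters held one of the 4 spellings. TATAAA, the core of the TATA box, was in none of the 5 windows and in 14.2% of all promoters. These matches describe the letters of the windows, and no binding was measured.

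Total counts assigned to genes ran from 13128977 to 18257865 per sample. On the first principal component, which held 65.2% of the variance over 12044 tested genes, the samples numbered 1 scored -59.9 (sg-MIAT) and -69.7 (sg-U6). The remaining samples were also widely spread, from 11.1 (sg-MIAT 3) to 73.9 (sg-U6 3). The samples numbered 1 were the only ones below 0, and the fold changes of the 6 genes are therefore also given without them. Levels are in CPM (counts per 1000000 counts of the library) after TMM scaling, which corrects for differences in composition between libraries. CPM are not divided by gene length, so levels are compared between samples and not between genes.

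The comparison of sg-MIAT with sg-U6 asked whether cells given the MIAT guide differ in these transcripts, the title of the study naming mitotic progression. None of the 6 genes passed the test. The mean was lower in sg-MIAT for Cdk1, Ccnb1, Top2a, Mki67 and Ccnd1, by 1.14- to 1.67-fold in the fitted values, and 1.07-fold higher for Pcna. By the quasi-likelihood test of edgeR, adjusted over all genes by the Benjamini-Hochberg method, 0 of the 6 members and 0 of 12044 genes (0%) had an adjusted p under 0.05. At an unadjusted p under 0.05, edgeR, DESeq2 and limma-voom each held 1 member, Ccnd1, beside 477 genes (3.96%), 730 genes (3.99%) and 419 genes (3.48%) overall. DESeq2 also called 0 members, with 60 of 13535 genes (0.443%) called, and limma-voom called 0 members and 0 genes.

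Cdk1 (ENSRNOG00000000632) encodes the kinase that drives entry into mitosis. It measured 76.4, 69.0 and 95.4 CPM in sg-MIAT 1, 2 and 3, and 88.9, 104.6 and 82.1 CPM in sg-U6 1, 2 and 3. The groups overlapped, since sg-MIAT 3 lay above both sg-U6 1 and sg-U6 3. Group means were 80.2 ± 13.6 CPM in sg-MIAT and 91.9 ± 11.5 CPM in sg-U6 (SD, n = 3 each). The fitted log2 fold change was -0.20 ± 0.18 (SE), the adjusted edgeR p was 0.9995, and the 95% interval of -0.63 to 0.24 spans both signs. Leaving out sg-MIAT 2 or sg-U6 2 brought it to -0.09, and leaving out sg-MIAT 3 to -0.34.

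Ccnb1 (ENSRNOG00000058539) encodes cyclin B1, the partner that activates Cdk1. Its levels were 18.5, 23.3 and 26.0 CPM in sg-MIAT 1, 2 and 3, from 216, 428 and 436 counts. In sg-U6 1, 2 and 3 they were 25.4, 32.2 and 38.6 CPM, from 361, 458 and 630 counts. Only sg-MIAT 3 and sg-U6 1 overlapped, by a margin inside their counting intervals (23.6 to 28.6 and 22.9 to 28.2 CPM, exact Poisson 95%, which cover counting error only). Means were 22.6 ± 3.81 CPM in sg-MIAT and 32.1 ± 6.60 CPM in sg-U6 (SD, n = 3 each). The fitted level was 1.42-fold lower in sg-MIAT, a log2 fold change of -0.50 ± 0.22 (SE) with an unadjusted edgeR p of 0.0599, an adjusted edgeR p of 0.9995 and a 95% interval of -1.03 to 0.03.

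Samples with the same number ranked alike for Ccnb1. The ratio of sg-MIAT to sg-U6 was 0.727, 0.726 and 0.673 for numbers 1, 2 and 3. The labels do not state that same-numbered samples are paired. Across genes, sg-MIAT 2 correlated better with sg-U6 3 than with the control of its own number, and sg-MIAT 3 about equally with sg-U6 2 and 3. With the sample number as a block, the log2 fold change of Ccnb1 was -0.50 ± 0.14 (SE), the 95% interval was -0.85 to -0.14, the unadjusted edgeR p was 0.0143 and the adjusted edgeR p 0.571. That fit held 2 members at an unadjusted p under 0.05, Ccnb1 and Ccnd1, beside 918 genes (7.62%), and called 0 members and 0 genes. Ccnb1 and Mki67 were the 2 members that were lower in sg-MIAT in every same-numbered pair, as were 15.5% of all genes tested.

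Top2a (ENSRNOG00000053047) encodes DNA topoisomerase II alpha, which untangles sister chromatids and accumulates in late S phase and G2. It stood at 51.2, 51.1 and 69.5 CPM in sg-MIAT 1, 2 and 3, against 49.9, 76.5 and 97.0 CPM in sg-U6 1, 2 and 3. The 3 control samples spanned 1.94-fold, from the lowest to the highest value of all 6 samples. The means, 57.3 ± 10.6 and 74.5 ± 23.6 CPM (SD, n = 3 each), differed by less than the SD of sg-U6, and the log2 fold change was -0.38 ± 0.27 (SE), with a 95% interval of -1.04 to 0.28 and an adjusted edgeR p of 0.9995. This value depended on which control library was left out: it was -0.14 without sg-U6 3 and -0.59 without sg-U6 1.

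Mki67 (ENSRNOG00000028137) encodes Ki-67, the surface protein of mitotic chromosomes that is widely stained as a marker of cycling cells. It was present at 47.8, 49.3 and 66.3 CPM in sg-MIAT 1, 2 and 3. The control samples held 57.4, 75.9 and 73.7 CPM. Here again sg-MIAT 3 lay above sg-U6 1, and the other 2 sg-MIAT samples lay below every control sample. Means were 54.5 ± 10.3 CPM in sg-MIAT and 69.0 ± 10.1 CPM in sg-U6 (SD, n = 3 each). The log2 fold change of -0.34 ± 0.20 (SE) had an adjusted edgeR p of 0.9995 and a 95% interval of -0.81 to 0.13.

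Pcna (ENSRNOG00000021264) encodes the sliding clamp that holds DNA polymerase on its template and serves as a marker of S phase. Its levels were 131.0, 122.4 and 150.6 CPM in sg-MIAT 1, 2 and 3, all inside the range of the control samples, which had 83.8, 165.5 and 127.0 CPM. The means were 134.7 ± 14.5 CPM in sg-MIAT and 125.4 ± 40.9 CPM in sg-U6 (SD, n = 3 each). The log2 fold change was 0.10 ± 0.26 (SE), its 95% interval ran from -0.53 to 0.73 and its adjusted edgeR p was 0.9995. The sign rested on the low value of sg-U6 1: without that library the log2 fold change was -0.11, and without both samples numbered 1 it was -0.10.

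Ccnd1 (ENSRNOG00000020918) encodes cyclin D1, which with Cdk4 and Cdk6 carries growth signals into G1. Its levels were 110.9, 83.4 and 135.2 CPM in sg-MIAT 1, 2 and 3, and 216.3, 199.9 and 134.2 CPM in sg-U6 1, 2 and 3. The first 2 control samples stood well above all sg-MIAT samples, and the third was level with sg-MIAT 3, with counting intervals of 128.6 to 139.9 and 129.7 to 140.9 CPM. On CPM scaled by library totals alone these 2 samples changed order (144.5 in sg-U6 3 and 139.4 in sg-MIAT 3), so the groups no longer overlapped, as for 598 of 12044 genes lower in sg-MIAT on that scale (4.97%). After TMM scaling the groups overlapped for Ccnd1 and for the other 5 members, while 529 genes (4.39%) were lower in sg-MIAT without overlap.

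The means of Ccnd1 were 109.8 ± 25.9 CPM in sg-MIAT and 183.4 ± 43.4 CPM in sg-U6 (SD, n = 3 each). Its fitted level was 1.67-fold lower in sg-MIAT, the largest difference of the 6. The log2 fold change was -0.74 ± 0.26 (SE), the 95% interval without adjustment for the number of genes was -1.36 to -0.12, the unadjusted edgeR p was 0.0267 and the adjusted edgeR p 0.9995. By unadjusted p it ranked 244 among 12044 genes. Without both samples numbered 1 the log2 fold change was -0.61 ± 0.31 (SE), with an unadjusted edgeR p of 0.0974. It ran from -0.57 without sg-MIAT 2 to -0.92 without sg-U6 3.

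**Figure D1:**
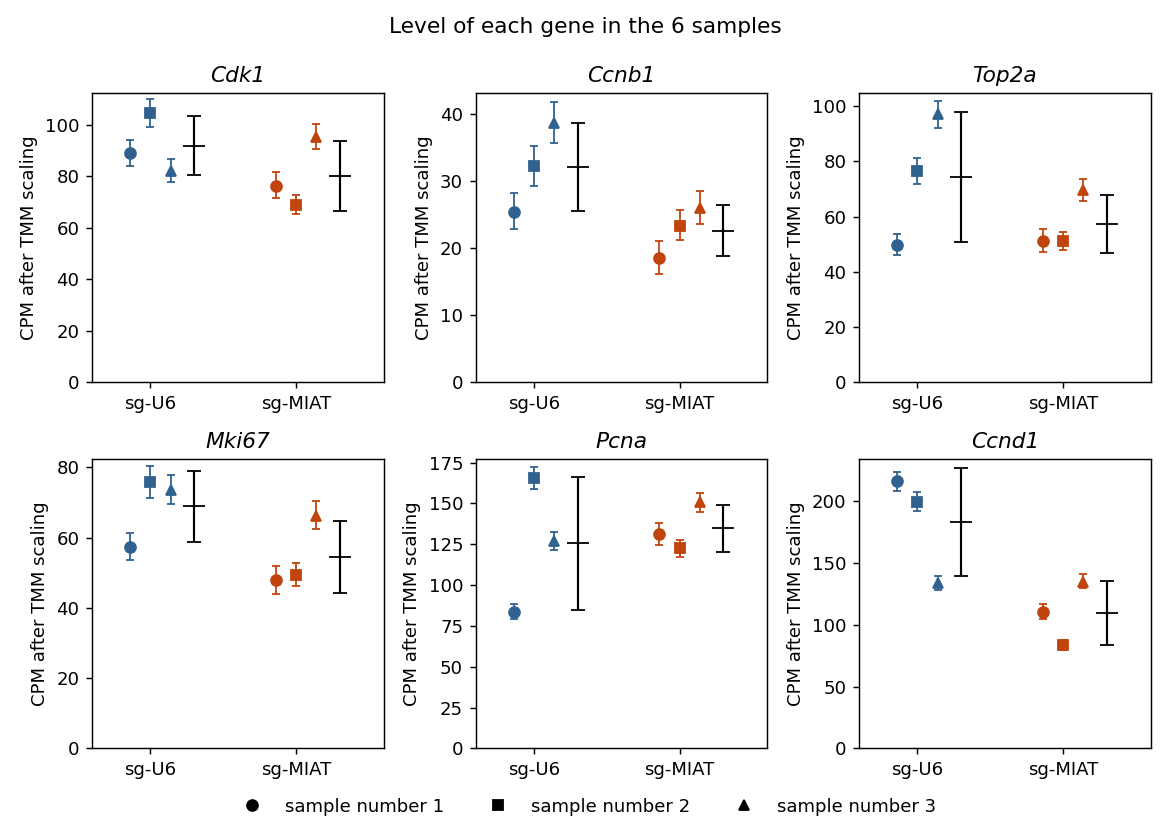
Level of each gene in CPM after TMM scaling (vertical axes from 0), by guide. Symbols are samples by number with exact Poisson 95% counting intervals, and the black bars are the mean ± SD of 3 samples. For all 6 genes the groups overlap, for Ccnb1, Mki67 and Ccnd1 by a single sample of each group.

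**Figure D2:**
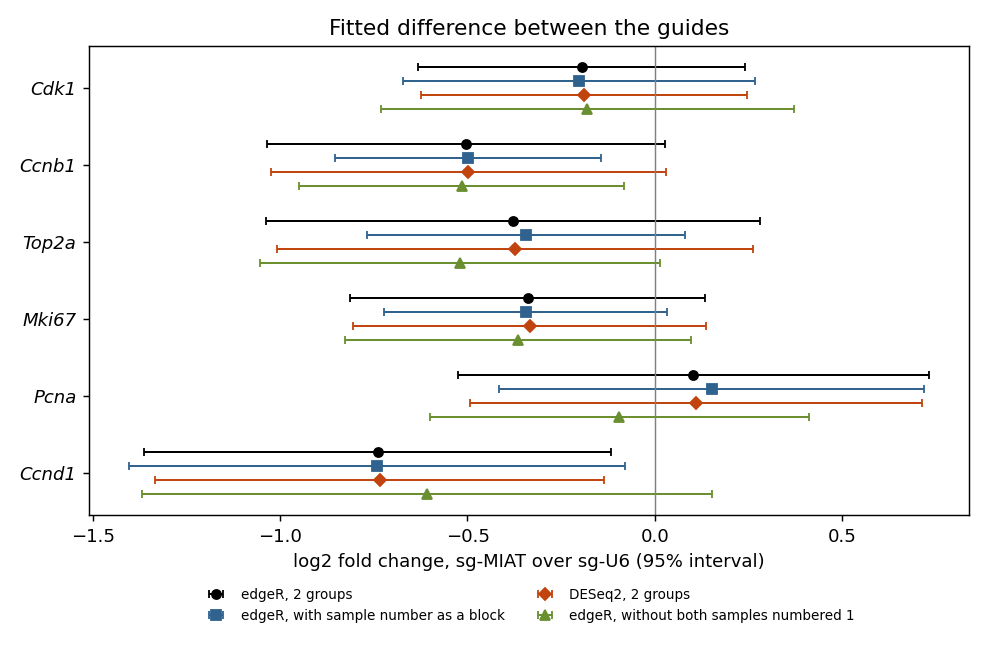
Fitted log2 fold change of each gene (sg-MIAT relative to sg-U6) with 95% intervals not adjusted for the number of genes, from edgeR, edgeR with the sample number as a block, DESeq2, and edgeR without both samples numbered 1. The intervals of Cdk1, Top2a, Mki67 and Pcna include 0 in all 4 fits, and Pcna changes sign without the samples numbered 1.

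Read against the whole transcriptome, 5 of the 6 genes lay below the median of all genes and Pcna above it. Their median log2 fold change was -0.36, beside -0.03 over the 12044 genes tested, of which 19.5% had a fold change below that of the members' median. The same 5 had a negative fold change, as did 54.6% of all genes. The median absolute log2 fold change over all genes was 0.19 and the median SE 0.30, and each member's SE lay between 0.18 and 0.27. Without both samples numbered 1, the log2 fold change was -0.18 for Cdk1, -0.52 for Ccnb1, -0.52 for Top2a, -0.37 for Mki67, -0.10 for Pcna and -0.61 for Ccnd1. All 6 were then negative with a median of -0.44, but the share and median over all genes were not computed for this fit. Of the 6, edgeR called 0, and 1, Ccnb1, had an unadjusted p under 0.05 beside 966 genes (7.88%). Among those 966 genes 596 were lower in sg-MIAT, beside 239 of 477 with all 6 samples. Without sg-U6 1 alone the members at an unadjusted p under 0.05 were Ccnb1 and Top2a, beside 1470 genes (11.9%). In edgeR, the median log2 fold change of the members was -0.52 without sg-U6 1 alone and -0.28 without sg-U6 3 alone.

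**Figure D3:**
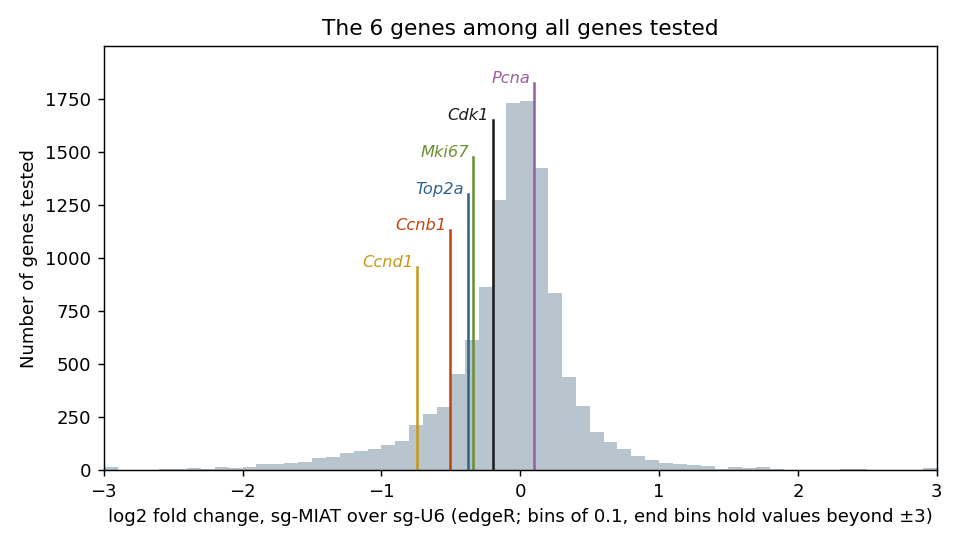
Histogram of the edgeR log2 fold change (sg-MIAT relative to sg-U6) of 12044 genes in bins of 0.1 (21 genes beyond ±3 are in the end bins), with the 6 genes as vertical lines of arbitrary height. Ccnd1 at -0.74 lies furthest from 0 among the 6, within the left shoulder of the distribution.

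The spread between samples far exceeded counting error. Within groups, the SD of log2 CPM was 0.21 for Cdk1, 0.24 for Mki67, 0.28 for Ccnb1, 0.36 for Ccnd1, 0.37 for Pcna and 0.39 for Top2a, where counting alone would give 0.03 to 0.07. Over all genes tested, not matched for expression level, the median within-group SD was 0.37. Cdk1, Mki67 and Ccnb1 lay below it, with 24.2%, 30.2% and 36.3% of genes having a smaller SD. Across all 6 samples the highest level was 1.52 times the lowest for Cdk1 and 2.59 times for Ccnd1, with the other 4 genes between.

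The 4 mitotic genes all lay below their own means in sg-MIAT 1 and 2 and above them in sg-U6 2. In the other samples they differed in sign. Their mean log2 CPM relative to each gene's own mean was -0.33, -0.28 and 0.09 in sg-MIAT 1, 2 and 3. In the controls sg-U6 1, 2 and 3 it was -0.11, 0.29 and 0.34. This mean was lowest in sg-MIAT 1 and 2, intermediate in sg-U6 1 and sg-MIAT 3, and highest in sg-U6 2 and 3. Ccnb1 and Mki67 kept this order. Top2a was lowest in sg-U6 1 (-0.35), and Cdk1 was lower in sg-U6 3 (-0.05) than in sg-MIAT 3 (0.16). Mki67 lay closest to this mean, with a root mean square difference of 0.04 on the log2 scale over the 6 samples, followed by Ccnb1 at 0.13, Top2a at 0.15 and Cdk1 at 0.19. These 4 genes enter the mean themselves. Pcna at 0.31 and Ccnd1 at 0.41 lay further off, and moved apart from each other in sg-U6 1, the sample in which Pcna was lowest and Ccnd1 highest.

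Of 7768 other genes with a mean of at least 10 CPM, the 2 nearest to the mitotic mean were ENSRNOG00000016690, with a root mean square difference of 0.04 over the 6 samples, and ENSRNOG00000013727, with 0.05. ENSRNOG00000016690 measured 23.7, 25.7 and 32.0 CPM in the sg-MIAT samples and 26.7, 35.7 and 39.3 CPM in the control samples. The sources used here do not pair these identifiers with names. Many genes lay near the mitotic mean: 105 were nearer to it than Ccnb1 and 623 nearer than Cdk1.

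**Figure D4:**
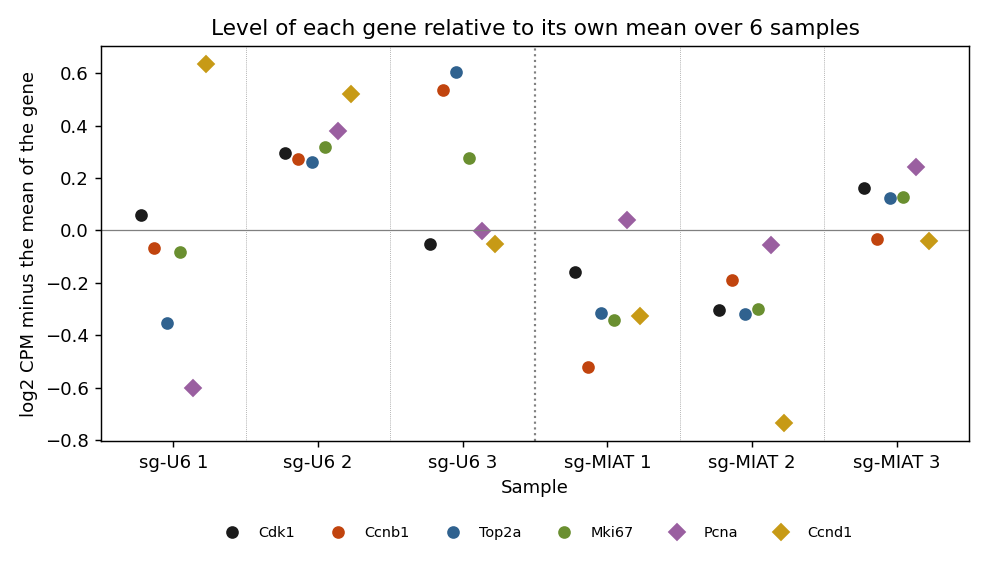
log2 CPM of each gene minus its own mean over the 6 samples (vertical axis), by sample. The 4 mitotic genes (circles) lie below 0 in sg-MIAT 1 and 2 and above 0 in sg-U6 2, with Cdk1 lower than the other 3 in sg-U6 3, and Pcna and Ccnd1 (diamonds) part in sg-U6 1.

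The shares of variance differed between the genes. For Ccnd1, the guide took 61.2% of the variance of log2 CPM over the 6 samples and the sample number 5.64%. For Ccnb1 the guide took 54.5% and the number 44.9%, which together leave almost nothing. For Top2a the number took 63.3% and the guide 22.5%, and for Pcna the guide took 6.05%. With sums of squares pooled over all genes, the guide took 16.3% and the number 61.6%. The most variable genes weigh most in these pooled shares, and the share in a typical gene was not computed. The sample number has more levels than the guide, so noise alone gives it a larger share, and the shares of guide and number are not directly comparable. With so few samples, noise alone also gives both sizeable shares. No test was attached to these shares.

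Ratios of 2 genes within a sample do not depend on how libraries are scaled, and 5 were compared between the guides with exact two-sided permutation tests over samples, which cannot go below p = 0.1 with 3 samples against 3. Ratios set mitotic genes against the replication clamp Pcna, against the G1 cyclin Ccnd1 and against each other. They are of counts not divided by length, so only their differences between samples are read. None could reach significance in this design. The 5 ratios share members, such as Pcna and Cdk1, so they are not independent. How often ratios of other genes separate the groups was not examined.

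The log2 ratio of Mki67 to Pcna was -1.45, -1.31 and -1.18 in sg-MIAT 1, 2 and 3, whereas the controls sg-U6 1, 2 and 3 had -0.55, -1.13 and -0.79. Every sg-MIAT sample lay below every control sample, but sg-MIAT 3 and sg-U6 2 were parted by less than counting error. The difference of means was -0.50 (exact permutation p = 0.1, 0.167 after Benjamini-Hochberg adjustment over the 5 ratios). It was -0.36 without sg-U6 1.

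For Top2a to Pcna the log2 ratio was -1.35, -1.26 and -1.12 for sg-MIAT 1, 2 and 3, whereas the controls had -0.75, -1.11 and -0.39. The groups were parted by less than counting error, between sg-MIAT 3 and sg-U6 2. The difference was -0.49 (exact permutation p = 0.1, adjusted 0.167) and was -0.31 without sg-U6 3. For Cdk1 to Pcna, the 2 sets of samples overlapped, sg-U6 1 stood alone at 0.09 with the other 5 samples between -0.83 and -0.63, and the difference of -0.35 (exact permutation p = 0.2, adjusted 0.25) was -0.11 without it.

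Cdk1 to Ccnd1 was the one ratio that was higher in sg-MIAT. Its log2 value was -0.54, -0.27 and -0.50 in sg-MIAT 1, 2 and 3, whereas the controls had -1.28, -0.93 and -0.71, with no overlap and a difference of 0.54 (exact permutation p = 0.1, adjusted 0.167). Both genes had lower means in sg-MIAT, Ccnd1 by more. Ccnb1 to Cdk1, cyclin B1 against its kinase, overlapped between the groups, with a difference of -0.30 (exact permutation p = 0.4, adjusted 0.4) that was -0.07 without sg-U6 3.

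**Figure D5:**
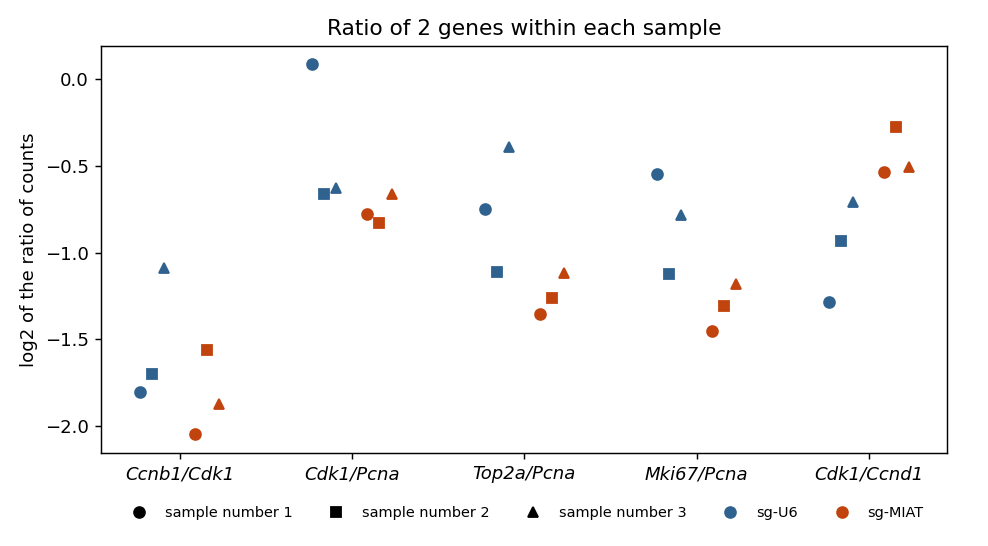
log2 of the ratio of counts of 2 genes within each sample (vertical axis), for 5 ratios, with colour for the guide and symbol for the sample number. The groups do not overlap for Top2a/Pcna, Mki67/Pcna and Cdk1/Ccnd1, and the control sample numbered 1 stands apart for Cdk1/Pcna. For Top2a/Pcna and Mki67/Pcna the gap between the groups is smaller than counting error. The ratios share genes and are not independent, and ratios of other genes were not examined.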

How the data were processed

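Per the labels' protocols, polyadenylated RNA was made into dUTP strand-marked libraries for paired-end DNBSEQ-T7 sequencing. HISAT2, DESeq2 and Rnor_6.0 appear in the submitters' processing notes. Which counter, strand setting and annotation were used is not given in the sources used here. Reads of overlapping or near-identical genes may thus be divided in an unknown way. The authors deposited raw counts per gene and a table named for FPKM whose deposited values are CPM: all but 5 genes equalled count over library total to a relative tolerance of 0.001. Whole reads (within 0.01) were recovered from 99.985% of its values above 0, and edgeR called 0 genes on them.

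The main test was edgeR 4.0.16 (R 4.3.3), quasi-likelihood F test, TMM, default filter (minimum count 10, minimum total 15), guide as the single term (3 samples each) and adjusted p (Benjamini-Hochberg) under 0.05 over all 12044 genes tested. SE is the log2 fold change over the square root of F. Log2 CPM used a prior count of 2. Alternatives were other scalings and filters, DESeq2 1.42.0, limma 3.58.1 (voom, and trend on log2 of CPM plus 1 or 0.1), the sample number as a block and left-out samples. Fits were tested on simulated data with changes larger than those of the members and no effect of sample number, so they do not show how the fits perform for such members. The members, gene lists and motifs were chosen with earlier results of these data known. All 6 members were named by rule, with the 2 other genes nearest to the mean course of the 4 mitotic members.

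The labels number the samples 1 to 3 in both groups. Deviations from the group means, taken across genes, correlated between samples of the same number at 0.730, 0.126 and 0.334, all above 0.1. The block is given as an alternative fit. Samples of unlike number also correlated above 0.1, and deviations within a group are not independent of each other, so these values do not establish a pairing. The labels do not state a pairing, and sg-MIAT 2 correlated higher with sg-U6 3 (0.630). For sg-MIAT 3 the correlation with sg-U6 2 (0.337) was as high as that with sg-U6 3. The number 2 thus did not mark the best match of sg-MIAT 2, and sg-MIAT 3 matched sg-U6 2 and sg-U6 3 about equally. The reference table (47357 genes, GRCr8) paired 0 identifiers with symbols, so 8 lists of cell cycle and cell type genes were not analysed here.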

Additional observations from a re-analysis of the deposited data

How the results depend on the processing

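In all 28 alternatives 0 members were called. The log2 fold changes of Cdk1, Ccnb1, Top2a, Mki67 and Ccnd1 were negative in all 28, with lowest and highest values of -0.34 and -0.09, -0.64 and -0.34, -0.59 and -0.13, -0.50 and -0.26, and -0.92 and -0.57. Pcna ran from -0.11 to 0.35 and was negative in 5 alternatives: -0.113 (edgeR) and -0.108 (DESeq2) without sg-U6 1, and -0.0951 (edgeR), -0.0920 (DESeq2) and -0.0895 (edgeR with the replicate block) without both samples numbered 1. The median log2 fold change of the members ran from -0.52 to -0.27. With the replicate block edgeR called 0 genes and 0 members, the median was -0.34, and no call of a member changed in edgeR, DESeq2 or limma-voom.

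Over all genes, edgeR and limma called 0 in every alternative, and DESeq2 called 60, or 130 with the replicate block. When samples were left out, edgeR called 0 genes each time and DESeq2 13, 16 and 171 without sg-MIAT 1, 2 and 3, 218, 13 and 39 without sg-U6 1, 2 and 3, and 120 without both samples numbered 1. The cause of this gap between tools was not tested. Leaving out samples moved the difference in the log2 ratio between -0.43 and -0.07 for Ccnb1/Cdk1, -0.48 and -0.11 for Cdk1/Pcna, -0.68 and -0.31 for Top2a/Pcna, -0.65 and -0.36 for Mki67/Pcna, and 0.38 and 0.67 for Cdk1/Ccnd1, with no change of sign. The median log2 range of the members over the samples was 0.97, and 0.73 to 0.97 with a sample left out, lowest without sg-U6 3. The tests added after seeing the data were edgeR on recovered reads, DESeq2 and the blocked edgeR fit without both samples numbered 1, and the left-out samples for ratios and ranges. In the edgeR fit of the 2 groups, the 95% intervals of Cdk1, Ccnb1, Top2a, Mki67 and Pcna include differences of either sign. With the replicate block and all 6 samples, that of Ccnb1 lay below 0 in edgeR (-0.85 to -0.14), in limma-voom (-0.85 to -0.15) and in DESeq2 (-0.95 to -0.04). In the blocked edgeR fit without both samples numbered 1, the Ccnb1 interval included 0 (-1.06 to 0.03). No fit at another depth was made.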
